A study of Mus musculus with 9 samples.

Results

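The Runx family and its partner Cbfb were followed as 4 genes, Runx1, Runx2, Runx3 and Cbfb, in RNA-seq of mouse thymic invariant natural killer T (iNKT) cells. They were found by gene symbol, and each matched 1 of the 21883 rows of the expression table. The 9 libraries, 3 per group, came from C57BL/6 mice: wild-type (WT) iNKT cells at stage 2, WT iNKT cells at stage 3, and iNKT cells at stage 2 from mice lacking Med23, a subunit of the Mediator complex. The WT mice were 6 weeks old, while no age was labelled for the Med23-deficient mice. In the study's model a Cd4-Cre transgene, active from the double-positive thymocyte, deletes Med23 fl/fl in all T cells that pass through that stage, so the deletion is not particular to iNKT cells. Cells were sorted by CD1d tetramer, CD24, CD44 and NK1.1 staining, with NK1.1 separating stage 2 from stage 3. NK1.1 is the product of Klrb1c, and its RNA is therefore no finding between the stages. The study's RNA-seq methods describe the data as standing for 3 independent experiments. Neither they nor the labels say whether the libraries of a group came from separate mice. The p-values then measure only the spread between these libraries, which may be technical.

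Runx1, Runx2 and Runx3 are transcription factors that bind the same short DNA sequence through the Runt domain. Each pairs with CBFb, the product of Cbfb, which does not touch DNA itself and strengthens the binding of its Runx partner. Depending on the gene and on cofactors such as the Groucho/TLE proteins, the pair activates or silences. In the thymus Runx1 is needed before and at the double-positive stage, including for iNKT precursors, and Runx3 silences Cd4 and Zbtb7b in the cytotoxic lineage and activates cytotoxic genes in T and NK cells. Runx2 is best known as the master regulator of osteoblasts. A gene of this family commonly has an upstream and a downstream promoter, and the expression table, which is summed per gene, does not separate their transcripts.

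The upstream promoters of the 3 Runx genes share a sequence, shown here because it holds a form of the motif of the family itself. Promoters were the RefSeq windows of 300 bases (250 before to 50 after a start, build GRCm38.p6), which matched all 4 genes with 6 promoters. The windows below are 30 bases each, 5′ to 3′ on the strand of the gene, and the capitals mark the motif ACCACA.

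Runx1, chr16:92826025-92826054, minus strand: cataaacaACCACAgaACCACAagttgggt

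Runx2, chr17:44814583-44814612, minus strand: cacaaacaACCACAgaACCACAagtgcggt

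Runx3, chr4:135120503-135120532, plus strand: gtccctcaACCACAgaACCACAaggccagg

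In all 3 windows 2 copies of the motif stood in the same direction, 2 bases apart. The pair, searched on both strands as ACCACA, then GA, then ACCACA without a gap, was found in 4 of 32851 RefSeq promoters (0.0122%). These were the 3 windows shown and the promoter of Gm16225, which overlaps that of Runx3 on the opposite strand and holds the same site. The pair began at base 29 after the RefSeq start in Runx1 and at base 24 in Runx2, within the first exon of both. In the GENCODE vM21 annotation an untranslated region (UTR) overlaps the Runx1 window shown, and both a UTR and coding sequence overlap that of Runx2. In Runx3 the pair began 134 bases before the start, where that annotation has no feature of Runx3. A single motif, ACCACA or its reverse complement TGTGGT, was in 16.8% of all promoters. It was absent from the window of Cbfb and from the downstream windows of Runx1 and Runx3. Only these exact letters were searched, so variants of the motif are neither marked nor counted. A match to these letters is a description and not a binding measurement.

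Values are FPKM, fragments on a gene scaled to the length of its transcripts and to the mapped fragments of the library, so that levels of different genes can be compared. Between 15584 and 17333 genes were above 0 in a library, and a single short non-coding model, Gm23935, took 62.2% to 71.9% of the summed FPKM. Read depth is unknown. The targeted gene, Med23, was at 5.51, 5.15 and 6.74 FPKM in WT stage 2 and was lower without Med23, where the FPKM were 4.80, 3.6 and 3.92. In WT stage 3 it was at 7.14, 4.44 and 6.12 FPKM, so that replicate 2 lay below the highest Med23-deficient library. Med23 RNA was thus still detected in the Med23-deficient libraries, and "without Med23" is short for their label. All 7 iNKT markers were present in each group. Their summed level was 689 to 746 FPKM in WT stage 2, 780 to 829 FPKM in WT stage 3 and 692 to 743 FPKM in Med23-deficient stage 2. The sum hides markers that differed in opposite directions between the WT stages. Zbtb16 was at 112.43, 87.96 and 102.71 FPKM in WT stage 2, against 22.72, 33.37 and 26.36 FPKM in WT stage 3. Cd4 was also lower in WT stage 3. Il2rb was higher, at 301.98, 283.30 and 348.39 FPKM against 103.45, 124.78 and 133.84 FPKM in WT stage 2. The 7 markers of double-positive thymocytes summed to between 1.67 and 4.99 FPKM. Markers of B, myeloid, erythroid, platelet and osteoblast cells summed to at most 1.24 FPKM per list, although only 1 or 2 markers of each list were analysed here.

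Runx3 was the most abundant of the 4 RNAs and Runx2 the least. The order Runx3, Cbfb, Runx1, Runx2 held in 9 of 9 libraries. Among protein-coding genes above 0 in a library, Runx3 ranked between the 94.0th and 98.1st percentile and Cbfb between the 88.1st and 92.1st. Runx1 ranked between the 56.2nd and 74.6th percentile and Runx2 between the 11.4th and 38.3rd.

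**Figure D1:**
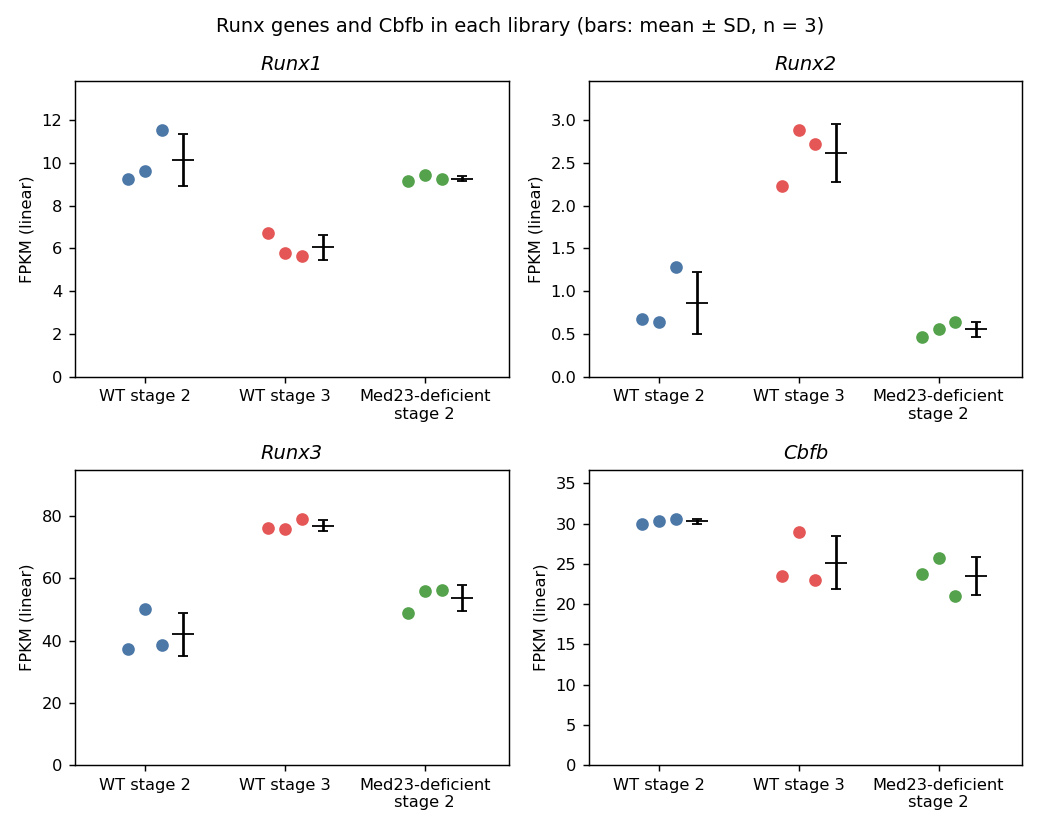
FPKM on a linear axis of Runx1, Runx2, Runx3 and Cbfb in each library of WT stage 2 (blue), WT stage 3 (red) and Med23-deficient stage 2 (green), with bars for the mean ± SD of 3 libraries. The red points of Runx2 and Runx3 lie above all blue points and those of Runx1 and Cbfb below them, while the green points overlap the blue ones for each gene except Cbfb.

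The first comparison, WT stage 3 against WT stage 2, asks how the Runx genes differ across the last step of thymic iNKT maturation. Runx3 RNA was higher in stage 3 and Runx1 RNA lower, with Runx2 higher from a very low level and Cbfb slightly lower. Differences were tested with limma on log2(FPKM + 1), in which 1 is added to each FPKM, so folds of genes with low FPKM are understated. A gene was called where its p, adjusted after Benjamini-Hochberg, was 0.05 or less. A second rule took the study's thresholds, a fold of 2 or more and an unadjusted p of 0.05 or less. The words rose and fell are kept for genes that passed either rule.

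Runx3 (ENSMUSG00000070691, chromosome 4, 135120652 to 135177990, mm10, plus strand) had FPKM of 37.47, 50.10 and 38.78 in WT stage 2, against 76.09, 75.75 and 79.08 in WT stage 3. Every stage 3 library was higher than every stage 2 library, and the stage 3 libraries lay closer together. The mean rose from 42.1 ± 6.94 FPKM to 77.0 ± 1.83 FPKM (SD, n = 3 each), a ratio of means of 1.83. The log2 fold change was 0.87 (standard error, SE, 0.12, 95% interval 0.56 to 1.17, limma adjusted p = 0.0399). This call was lost when any library other than WT stage 2 replicate 2 was left out, namely WT stage 2 replicate 1 or 3 or WT stage 3 replicate 1, 2 or 3, with limma adjusted p from 0.105 to 0.135, while the log2 fold change stayed between 0.79 and 0.99. It was also lost with the replicate number as a block (adjusted p = 0.125), on a TPM scale (0.131) or one without Gm23935 (0.0639), and in a linear model per gene after Ballgown, the study's tool (0.291).

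Runx1 (ENSMUSG00000022952, chromosome 16, 92601466 to 92826149, minus strand) showed the opposite order. Its FPKM were 9.25, 9.64 and 11.52 in WT stage 2, against 6.72, 5.78 and 5.64 in WT stage 3. All stage 3 libraries were below all stage 2 libraries. The means were 10.14 ± 1.21 FPKM and 6.05 ± 0.587 FPKM (SD, n = 3 each), and the log2 fold change of -0.66 (SE 0.14, 95% interval -1.0 to -0.31) did not pass the threshold (limma adjusted p = 0.10). It passed only in the fit that held all 9 libraries (adjusted p = 0.0298).

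Runx2 (ENSMUSG00000039153, chromosome 17, 44495987 to 44814797, minus strand) had FPKM of 0.67, 0.64 and 1.28 in WT stage 2, against 2.23, 2.88 and 2.72 in WT stage 3. The groups did not overlap, and the highest stage 2 library, replicate 3, stood well above the others of its group. The ratio of the means, 3.02, was the largest of the 4 genes. At this level the added 1 compresses the difference, and the log2 fold change of 0.97 (SE 0.25, 95% interval 0.36 to 1.57, limma adjusted p = 0.15) became 1.65 with 0.01 added instead. Neither value passed the adjusted threshold. The study's thresholds were missed by the fold, with an unadjusted limma p of 0.00778, and were passed with 0.1 or 0.01 added, with a common upper quartile (log2 fold change 1.01), in the Ballgown-style model (1.21) and on leaving out replicate 1 of WT stage 3 (1.04) or replicate 3 of WT stage 2 (1.12). For Runx2 that call therefore depends on the processing.

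Cbfb (ENSMUSG00000031885, chromosome 8, 105170674 to 105217989, plus strand) had FPKM of 30, 30.28 and 30.56 in WT stage 2, against 23.54, 28.89 and 22.96 in WT stage 3. The stage 2 libraries were nearly equal, and WT stage 3 replicate 2 lay close below them. The log2 fold change was -0.27 (SE 0.11, 95% interval -0.53 to -0.00, limma adjusted p = 0.375).

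Of the 4 genes, 1 was thus called by the adjusted p, against 1.67% of the 20689 genes tested (0.759% in the direction of Runx3, higher, and 0.914% lower). By the study's thresholds 0 were called with 1 added to the FPKM, Runx2 being called under the settings given above, against 3.60% of all genes (1.70% higher and 1.90% lower), while all 4 had an unadjusted limma p of 0.05 or less, against 13.2%. The groups did not overlap for 4 of 4, Runx2 and Runx3 higher and Runx1 and Cbfb lower, where 17.8% of all genes tested did not overlap, 7.36% higher and 10.4% lower. In sorted but bulk RNA, fewer cells of a type and less RNA per cell cannot be told apart. The 3 stage 3 markers, Klrb1c, Tbx21 and Klrd1, summed to 40.8 to 67.8 FPKM in WT stage 2 and to 197 to 264 FPKM in WT stage 3, and the part of such a shift in cell makeup in the Runx differences was not tested.

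**Figure D2:**
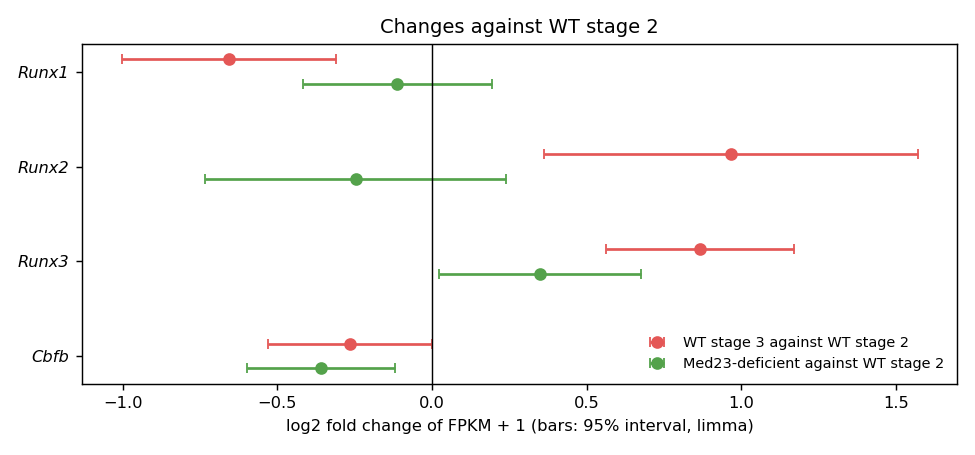
log2 fold change of FPKM + 1 against WT stage 2 for each gene (points) with the 95% interval from limma (bars), for WT stage 3 (red) and Med23-deficient stage 2 (green). The red intervals of Runx1, Runx2 and Runx3 exclude 0 and that of Cbfb ends just below it, at -0.00. Among the green intervals those of Runx3 and Cbfb exclude 0 and those of Runx1 and Runx2 include it.

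The second comparison, Med23-deficient stage 2 against WT stage 2, asks what the loss of Med23 changes at the same labelled stage. It uses the same WT stage 2 libraries as the first, so the comparisons are not independent. No member was called by either rule. In the comparison as a whole, 0.213% of the 20674 genes tested passed the adjusted p and 2.11% the study's thresholds (0.798% higher and 1.32% lower). At an unadjusted limma p of 0.05 or less, passed by 9.58% of all genes, Runx3 and Cbfb were 2 of the 4.

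Runx3 was at 48.79, 55.91 and 56.14 FPKM without Med23, each above at least 2 of the 3 WT stage 2 libraries. WT stage 2 replicate 2, at 50.10 FPKM, lay within their range, so the groups overlapped. The mean was 53.6 ± 4.18 FPKM (SD, n = 3), between those of WT stage 2 and WT stage 3, and the log2 fold change was 0.35 (SE 0.13, 95% interval 0.02 to 0.68, limma adjusted p = 0.479).

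Cbfb was the only member whose groups did not overlap, at 23.77, 25.69 and 20.96 FPKM without Med23 and at least 30 FPKM in each WT stage 2 library. In all, 14.0% of the genes tested did not overlap in this comparison, 8.37% being lower. The log2 fold change of Cbfb was -0.36 (SE 0.10, 95% interval -0.60 to -0.12), with an unadjusted p of 0.0104 in limma that did not pass adjustment (0.295).

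Runx1 was at 9.15, 9.41 and 9.23 FPKM without Med23, with a mean of 9.26 ± 0.133 FPKM (SD, n = 3). These values were tightly grouped and overlapped those of WT stage 2, with a log2 fold change of -0.11 (95% interval -0.42 to 0.19, limma adjusted p = 0.764). Runx2 was at 0.46, 0.56 and 0.64 FPKM, no higher than the lowest WT stage 2 library, which was also at 0.64. Its log2 fold change was -0.25 (95% interval -0.73 to 0.24, limma adjusted p = 0.731). The intervals leave room for a moderate difference of either sign, and the missing calls do not show that the RNAs were equal.

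On the TPM scale, where each library is set to the same total, the median over genes whose mean FPKM reached 1 shifted by -0.16 in this comparison and by -0.14 in the first. Relative to that median, Runx3 was higher by 0.38 and Cbfb lower at -0.33 without Med23. Relative to the median as deposited the values were 0.40 and -0.31. The direction of each of the 4 genes in each comparison was the same under every scaling run.

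Because the Runx proteins compete for CBFb and for the same motif, the share of each gene in the summed FPKM of Runx1, Runx2 and Runx3 was computed within each library, which removes any scaling between libraries. Both other groups had a larger share of Runx3 and a smaller share of Runx1 than WT stage 2. Runx3 made up 79.1%, 83.0% and 75.2% of the sum in WT stage 2, 89.5%, 89.7% and 90.4% in WT stage 3, and 83.5%, 84.9% and 85.05% in Med23-deficient stage 2. No 2 groups overlapped, and the Med23-deficient libraries lay between the WT stages, closest to WT stage 2 replicate 2. The means were 79.1% ± 3.90, 89.9% ± 0.498 and 84.5% ± 0.821 (SD, n = 3 each).

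Runx1 took 19.5%, 16.0% and 22.3% of the sum in WT stage 2, 7.90%, 6.85% and 6.45% in WT stage 3, and 15.7%, 14.3% and 13.98% in Med23-deficient stage 2. The Med23-deficient libraries again fell between the others without overlap, although their Runx1 FPKM itself overlapped that of WT stage 2. The ratio of Runx3 to Runx1 FPKM had means of 4.205 ± 0.925, 12.8 ± 1.37 and 5.79 ± 0.399 (SD, n = 3) in the same order of groups.

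Runx2 took the smallest share throughout, and its order of groups was different. It made up 1.41%, 1.06% and 2.48% of the sum in WT stage 2, 2.62%, 3.41% and 3.11% in WT stage 3, and 0.788%, 0.850% and 0.970% in Med23-deficient stage 2. The Med23-deficient libraries were thus lowest and on the far side of WT stage 2 from WT stage 3.

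Each of these shares differed among the 3 groups in an exact permutation test over the 9 libraries (2-sided by construction, 1680 assignments), with p = 0.00357 for Runx1, for Runx2 and for Runx3, the smallest value such a test can give. The shares sum to 100 in each library and are not 3 independent results. Between any 2 groups the exact permutation test cannot go below p = 0.1 with 3 libraries against 3, and it gave 0.1 for each share in both comparisons with WT stage 2. With the replicate number as a block the 3-group exact p was 0.0278 for each share. This is the smallest value the blocked test can give with its 216 assignments. With any 1 library left out the 3-group exact p stayed between 0.00357 and 0.0393.

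**Figure D3:**
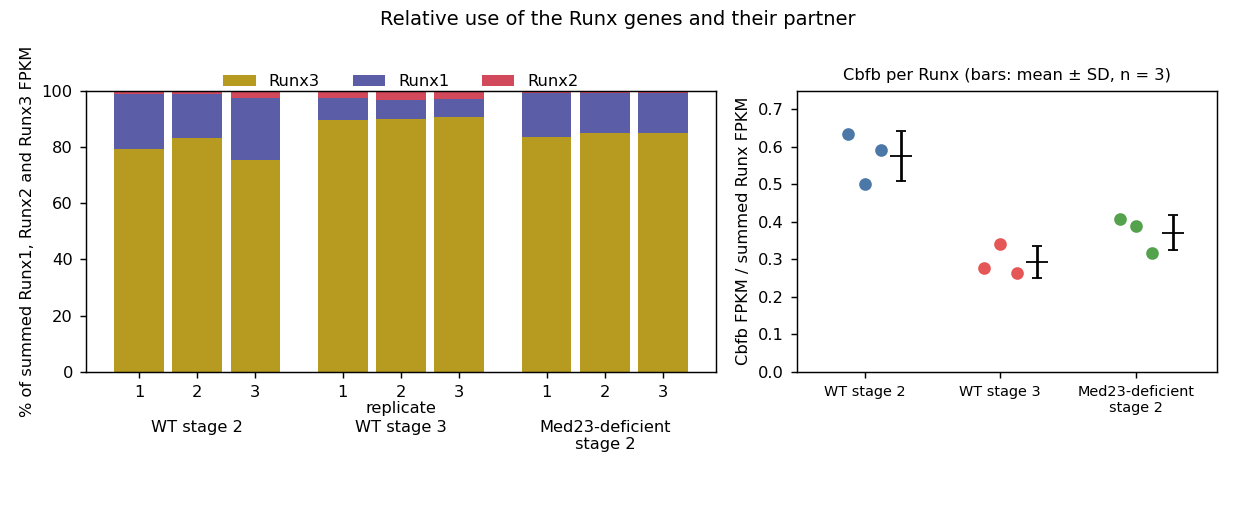
Left, stacked bars of the percent that Runx3 (ochre), Runx1 (blue-violet) and Runx2 (red) took of their summed FPKM in each library. Right, the ratio of Cbfb FPKM to that sum in each library, with bars for the mean ± SD of 3 libraries. The ochre share was 75.2% to 83.0% in WT stage 2, 83.5% to 85.05% in Med23-deficient stage 2 and 89.5% to 90.4% in WT stage 3, and the Cbfb ratio was highest in WT stage 2.

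The supply of partner RNA per Runx RNA differed in a like manner. Cbfb FPKM per summed Runx FPKM was 0.633, 0.501 and 0.592 in WT stage 2, 0.277, 0.342 and 0.263 in WT stage 3, and 0.407, 0.390 and 0.318 in Med23-deficient stage 2. WT stage 2 stood above both other groups, which overlapped each other. On the log2 scale the ratio differed among the 3 groups with an exact permutation p of 0.00714. The sum of the Runx genes alone had means of 53.1 ± 6.63, 85.6 ± 1.60 and 63.4 ± 4.36 FPKM (SD, n = 3) in WT stage 2, in WT stage 3 and without Med23. The first and last of these overlapped (exact permutation p = 0.2).

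Other gene models lie over the members on the genome. Supt3, a protein-coding gene on the opposite strand over the upstream end of Runx2, had FPKM of 2.41, 2.29 and 2.28 in WT stage 2, against 1.73, 1.15 and 1.23 in WT stage 3. Between the WT stages Supt3 was thus in the opposite order to Runx2. Without Med23 it was at 1.48, 1.26 and 2.36 FPKM. Replicates 1 and 2 of that group lay below every WT stage 2 library, the same direction as the Runx2 means, and replicate 3 did not. The antisense models Runx2os1 and Gm16224, within Runx2 and Runx3, were listed at 0 throughout WT stage 2 and reached at most 1.03 FPKM in WT stage 3. Gm16224 was at 1.58 FPKM in Med23-deficient replicate 3, and both were otherwise listed at 0 without Med23. The library kit keeps strand, but whether the counting used it is not given in the sources used here, and reads of overlapping genes on opposite strands may not be separated. For Runx2, whose own level is similarly low, this makes the values uncertain. On the same strand as Cbfb and within it lie Gm22063 and Gm24629, at up to 8.07 and 7.6 FPKM in a library. Within Runx2 and on its strand, n-R5s27 was listed at 0 in WT stage 2. It reached 0.07 FPKM in WT stage 3 and 1.16 FPKM in Med23-deficient replicate 2. Strand cannot separate these models from the members.

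Across the 9 libraries the log2(FPKM + 1) of Runx1 ran opposite to that of Runx2 and Runx3, which ran together. Runx1 and Runx3 had a Pearson r of -0.89, Runx1 and Runx2 one of -0.83, and Runx2 and Runx3 one of 0.73. Cbfb followed none of them closely, with r between -0.51 and 0.32. These are descriptions over 3 groups of 3 libraries, so they rest mostly on differences between groups.

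To find genes of like pattern, 9497 genes whose mean FPKM reached 1 were compared with each member. Models named Gm with a number, ending in Rik or with a clone name were left out. The genes most like each member over the 9 libraries were taken by Pearson r of log2(FPKM + 1). For Runx3 they were PVRIG (r = 0.976), Peg13 (0.974) and Nkg7 (0.974), a cytotoxic granule protein gene. For Runx2 they were Klra7 (0.986), Ncr3-ps (0.985) and Klrk1 (0.977), of which Klra7 and Klrk1 encode NK cell receptors. Klra7 belongs to a multigene family whose near-identical members can share reads, so its values are uncertain. For Runx1 they were Treml2 (0.980), Cdk2 (0.966) and P2rx7 (0.966), a kinase of the cell cycle and an ATP-gated channel among them. For Cbfb they were Btg3 (0.980), Stmn1 (0.973) and Egr1 (0.943), an immediate early transcription factor gene. These genes were, like Cbfb, highest in WT stage 2, although WT stage 3 replicate 2, where Cbfb was at 28.89 FPKM, came close for Btg3, at 11.08 FPKM against 11.4 to 14.03 FPKM in WT stage 2. Egr1 was at 24.87 to 32.82 FPKM in WT stage 2, 11.45 to 20.72 FPKM in WT stage 3 and 8.27 to 15.68 FPKM without Med23.

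None of the listed genes for proteins that Runx factors recruit was called. Of 27 listed cofactors, 23 were in the table and tested, and 0 of 23 were called by either limma rule in either comparison. Over all genes tested, 1.67% passed the adjusted p and 3.60% the study's thresholds in stage 3. Without Med23 these shares were 0.213% and 2.11%. With shares this low, 0 calls among 23 genes do not set the cofactors apart. Their median log2 fold changes were -0.04 in stage 3 and -0.06 without Med23, beside -0.01 over all genes tested in both. Aes, a short Groucho family member, was the most abundant at 131.30 to 167.72 FPKM in WT stage 2, followed by the acetyltransferase gene Kat6a at 45.45 to 53.09 FPKM. The log2 fold change of Tle3, a Groucho gene, was -0.58 in stage 3 (limma adjusted p = 0.115), and that of Hdac1, a histone deacetylase gene, was -0.44 without Med23 (limma adjusted p = 0.214). Tle3 and Hdac1 were picked out after their values were seen.

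Among transcription factors that share DNA elements with Runx, most of the calls were of genes lower in stage 3. Of 22 listed partners, 18 were tested in the first comparison, where by the adjusted p 1 rose and 4 fell, and by the study's thresholds 1 rose and 3 fell, with a median log2 fold change of -0.15. Over all genes tested, 0.759% were higher and 0.914% lower by the adjusted p, and 1.70% and 1.90% by the study's thresholds. Tcf7, the most abundant partner and a factor of early T cells, fell from 243.64, 172.75 and 194.87 FPKM in WT stage 2 to 35.10, 52.60 and 40.28 FPKM in WT stage 3. Its log2 fold change was -2.23 (SE 0.19, limma adjusted p = 0.0118). Myb and Lef1 fell, with log2 fold changes of -2.16 and -1.22, and Cebpb rose by 0.77. The remaining gene that fell, Bcl11b, a T lineage factor gene, had a log2 fold change of -0.75 (SE 0.10, limma adjusted p = 0.0342). Tbx21, which encodes the T-box factor that acts with Runx3 on cytotoxic genes, rose by 1.31 and passed only the study's thresholds. With 1 library left out, the calls by the adjusted p were lost for Lef1, Cebpb and Bcl11b in each case and for Myb in all but that of WT stage 3 replicate 2. Tcf7 lost it without replicate 3 of either stage, with limma adjusted p up to 0.066. With the replicate block all 5 lost it, Tcf7 at a limma adjusted p of 0.0935 and the others at 0.0776 to 0.147.

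Without Med23, 0 of the 18 partners passed the adjusted p and 1, Myb, fell by the study's thresholds, with a median log2 fold change of -0.04. Over all genes tested in that comparison, 0.213% passed the adjusted p and 2.11% the study's thresholds, with 1.32% lower by the latter. Myb was at 3.66, 4.21 and 1.96 FPKM, against 10.84, 11.31 and 9.80 FPKM in WT stage 2 (log2 fold change -1.48, limma adjusted p = 0.103). Elf1, an Ets factor and the partner of second highest level, was at 69.77 to 90.93 FPKM over all 9 libraries and was not called in either comparison.

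Genes known or held to be regulated by Runx in T and NK cells moved in both directions. Of 38 listed genes, 35 were tested in the first comparison. By the adjusted p 7 rose and 5 fell, and by the study's thresholds 9 rose and 6 fell, with a median log2 fold change of 0.17, beside 1.67% and 3.60% of all genes called by these rules. Leaving out 1 library lowered the 12 calls by the adjusted p to 8 for WT stage 2 replicate 1, to 7 for replicate 2 of that group, and to 5 for WT stage 3 replicate 1. They also numbered 5 when WT stage 3 replicate 2 was left out, 2 when it was WT stage 2 replicate 3 and 1 when it was WT stage 3 replicate 3. With the replicate block the 12 calls became 2, Gzmb and Ifng, and in the Ballgown-style model 0. The 15 calls by the study's thresholds became 15 or 16 with a library left out. The list holds the 3 stage 3 markers, the gate gene Klrb1c among them. It shares genes with the list of partners, so the calls of Tcf7 and Tbx21 are counted in both lists.

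Gzmb, Klrd1, Ifng, Cd244 and Il2rb were among the genes that rose. Gzmb, encoding granzyme B, rose from 11.35, 14.40 and 10.17 FPKM in WT stage 2 to 149.10, 210.79 and 164.02 FPKM in WT stage 3. This was a log2 fold change of 3.76 (SE 0.18, limma adjusted p = 0.00368), and the call was kept with each library left out and with the replicate block, but not in the Ballgown-style model (adjusted p = 0.162). Il2rb, the shared receptor chain of IL-2 and IL-15 and the second most abundant gene of the list, rose from 103.45, 124.78 and 133.84 FPKM to 301.98, 283.30 and 348.39 FPKM. Ifng rose by 2.93 on the log2 scale, Klrd1 by 2.95 and Cd244 by 2.39. Cd244 was at 0, 0 and 0.04 FPKM in WT stage 2. The genes that fell included the chemokine receptor gene Ccr7, which had FPKM of 9.12, 7.83 and 12.09 in stage 2, against 0, 0.11 and 0.17 in stage 3 (limma adjusted p = 0.00843). Ccr7 lost its call without WT stage 3 replicate 3 (0.0529), and Cd244 without that library, WT stage 3 replicate 2 or WT stage 2 replicate 3 (up to 0.066). For Il2rb and Klrd1 the call was kept only without WT stage 2 replicate 1, and for Ifng only without WT stage 2 replicate 2. With the replicate block the limma adjusted p was 0.0744 for Ccr7 and Il2rb, 0.101 for Klrd1 and 0.0968 for Cd244, and for Ifng it was 0.0439.

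The classical silencing targets of Runx3 were looked at because of that role, after their values were seen. Cd4 fell from 51.91, 49.01 and 51.78 FPKM in WT stage 2 to 17.17, 25.42 and 20.18 FPKM in WT stage 3. Its log2 fold change was -1.26 (SE 0.15, limma adjusted p = 0.0237), and the call was kept only without WT stage 3 replicate 2 when a library was left out, with limma adjusted p up to 0.102 otherwise and of 0.109 with the replicate block. Il4, which has a Runx-bound silencer, fell by 1.69 on the log2 scale and passed only the study's thresholds. Zbtb7b, encoding the CD4 lineage factor ThPOK, had FPKM of 16.13, 24.54 and 29.11 in stage 2, against 22.54, 21.10 and 23.46 in stage 3, with full overlap (log2 fold change -0.02, limma adjusted p = 0.976). The targets thus differed among themselves while Runx3 RNA was higher.

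Without Med23, 34 of the list were tested, of which 0 passed the limma adjusted p, a count that was 1 or 2 under 7 of the alternatives below, while by the study's thresholds 1 rose and 4 fell, against 2.11% of all genes. The median log2 fold change was -0.11. Itgae, encoding the integrin chain CD103 and a known Runx3 target, differed most. Its FPKM were 36.31, 63.61 and 40.42 in WT stage 2, against 4.93, 7.63 and 9.49 without Med23, and it fell by 2.51 on the log2 scale (SE 0.29, limma adjusted p = 0.0511). The adjusted threshold was passed under 7 of 11 alternatives, namely with 0.1 or 0.01 added (limma adjusted p = 0.0259 and 0.0170), at a mean FPKM of at least 1 (0.00702), on the TPM scale without Gm23935 (0.0463), with a common upper quartile (0.0428), with quantile normalization (0.0472) and with all 9 libraries (0.00712). It was not passed on the TPM scale with Gm23935 (0.0690), in limma without trend (0.0650), with the replicate block (0.195), in the Ballgown-style model (0.534) or with a library left out (0.0993 to 0.159). Each Med23-deficient library was below every WT stage 2 library, and in WT stage 3 the gene was at 67.41, 85.38 and 82.98 FPKM. The mean of Runx3 without Med23 was 53.6 FPKM, against 42.1 FPKM in WT stage 2, but these groups overlapped and Runx3 was not called (limma adjusted p = 0.479). A link between Itgae and Runx3 was not tested.

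Klrd1, Klrb1c and Prf1 also fell without Med23, with log2 fold changes of -2.08, -1.88 and -1.17. Prf1, encoding perforin, had FPKM of 0.43, 0.72 and 0.55 without Med23, 2.01, 3.79 and 2.01 in WT stage 2, and 17.06, 14.72 and 17.52 in WT stage 3. Il2ra, the IL-2 receptor alpha chain, was the gene that rose, to 3.66, 3.40 and 6.57 FPKM from 0.95, 1.02 and 1.5 FPKM (log2 fold change 1.33, limma adjusted p = 0.206). Itgb2, the most abundant gene of the list, was not called, at 237.83, 269.87 and 247.88 FPKM against 168.32, 190.12 and 200.84 FPKM in WT stage 2. The 3 stage 3 markers summed to 41.8 to 47.3 FPKM without Med23, within the 40.8 to 67.8 FPKM of WT stage 2. That sum was carried by Tbx21, at 34.90, 38.15 and 43.61 FPKM against 37.15, 30.54 and 20.42 FPKM in WT stage 2. Klrb1c was at 4.60, 2.61 and 3.04 FPKM against 16.34, 26.24 and 7.65 FPKM, and Klrd1 at 2.72, 1.08 and 0.61 FPKM against 4.66, 11.04 and 12.76 FPKM. Both were below every WT stage 2 library, and the part of such a shift in cell makeup in the Med23 differences was not tested.

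**Figure D4:**
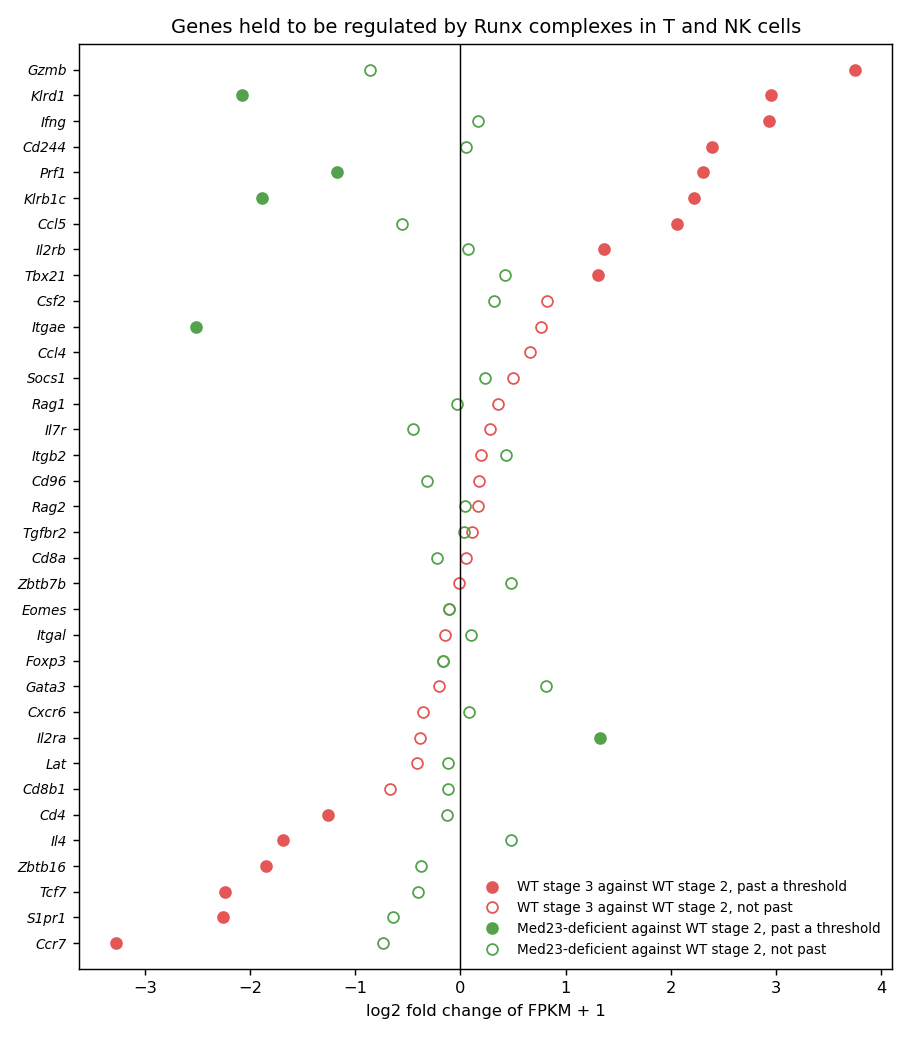
log2 fold change of FPKM + 1 for each gene of the T and NK list that was tested, ordered by the WT comparison, for WT stage 3 (red) and Med23-deficient stage 2 (green) against WT stage 2. Filled points passed either rule and open points did neither. Gzmb lies farthest to the right at 3.76, Ccr7 farthest to the left at -3.27, and Itgae has a green point at -2.51 beside a red one at 0.77.

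The Runx motif in the form searched, ACCACA or TGTGGT, was in 11 of the 28 RefSeq promoters of the list (39.3%, 24 genes matched), beside the 16.8% of all promoters of that length. The genes were Ccl3, Cd96, Cxcr6, Gzmb, Il3, Il7r, Klrb1c, Lat, Prf1, Rag1 and Zbtb7b. Of these Gzmb, Klrb1c and Prf1 rose in WT stage 3, Klrb1c by the study's thresholds only. The other 6 that were tested, Cd96, Cxcr6, Il7r, Lat, Rag1 and Zbtb7b, were not called, and the RNA of Ccl3 and Il3 was not analysed here. Of the whole list as tested, 34.3% passed the adjusted p and 42.9% the study's thresholds, in either direction. Over all genes tested these shares were 1.67% and 3.60%. The calls among genes with the motif are thus no finding about the motif. Motif shares were 9.68% for the promoters of the cofactors, 3.70% for those of the partners and 30.8% for those of the bone genes.

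Runx2 has a bone programme, from which 16 genes were listed. Of these 6 were analysed here, 5 of them tested in the first comparison and 6 in the second. The 1 called in the first comparison was Tnfsf11, encoding RANKL, a cytokine that activated T cells also make. It fell from 17.75, 13.28 and 8.61 FPKM in WT stage 2 to 2.28, 0.98 and 1.04 FPKM in WT stage 3, where Runx2 was higher, with a log2 fold change of -2.53 (limma adjusted p = 0.0298, above 0.05 with each library left out). Alpl, the bone gene of second highest level, was at most 1.37 FPKM. In the second comparison 0 of the bone genes were called by either limma rule. Over all genes tested, 1.67% passed the adjusted p and 3.60% the study's thresholds in the first comparison. In the second these shares were 0.213% and 2.11%, so 0 calls in so short a list are no finding about bone genes.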

How the data were processed

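RNA of 9 libraries was measured. Per the study's methods, libraries came from a stranded total RNA kit, and the authors trimmed reads with Trimmomatic 0.36, aligned them to mm10 with HISAT2, kept reads with at most 2 loci and quantified GENCODE genes with StringTie. The values are the FPKM the authors deposited, for 21883 genes with 2 decimals, replicates kept apart. FPKM are relative to each library's mapped reads. Gm23935 takes a large and varying part of the summed FPKM, and its part of the reads is unknown. No counts were used, so depth is unknown, counting error cannot be given, and the 3 libraries per group set the precision.

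log2(FPKM + 1) was fitted by lmFit of limma 3.58.1 (R 4.3.3; eBayes with trend; Benjamini-Hochberg over all genes tested), in fits of the 6 libraries compared with genes above 0 in at least 1 of them. Shares were tested by exact permutation over libraries (Python 3.11.15, numpy 2.4.6), and scripts were tested on simulated data. Named were the 4 members, from each list up to 6 called genes per comparison by size of change and the 2 of highest level, and the 3 genes most like each member. Exceptions are stated. The members, lists and tests were chosen with earlier results of these data known.

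Alternatives were added values of 0.1 and 0.01, a mean FPKM of at least 1, TPM with and without Gm23935, a common upper quartile, quantile normalization, a Ballgown-style model, limma without trend, all 9 libraries, the replicate block and leaving out each library. Settings for single list genes, for counts of the T and NK list and for calls of members by the study's thresholds were added after seeing the data. Promoters and their coordinates are from RefSeq (GRCm38.p6). Some listed genes are not reported here.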

Additional observations from a re-analysis of the deposited data

How the results depend on the processing

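No result for a member changed direction under any alternative run. In WT stage 3 against WT stage 2, the log2 fold change of Runx3 was 0.77 on the TPM scale, 0.82 on that scale without Gm23935, 0.99 in the Ballgown-style model and 0.87 with the replicate block, all no longer past the adjusted threshold, and 0.79 to 0.99 with a library left out. That of Runx1 was -0.66 with all 9 libraries and then passed it. The 4 tests of shares and of the Cbfb ratio kept their side of 0.05, each with an exact p of 0.0278 under the replicate block, the smallest value the blocked test can give. Same-numbered libraries correlated in their deviations at 0.03 to 0.16 between the WT stages and 0.00 to 0.14 between the stage 2 groups, over 0.1 in 1 of 3 pairs each, so the numbers were not taken as pairs. The pair over 0.1 was that of replicate 3 each time, also between WT stage 3 and Med23-deficient stage 2 (0.27). Whether same-numbered libraries were handled together is not labelled and was not tested. Between the WT stages each library correlated best with its own number.

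Of the 346 genes past the adjusted p in the first comparison, the count became 224 on the TPM scale, 5 in the Ballgown-style model, 600 with all 9 libraries, 19 with the block and 22 to 137 with a library left out. The 44 of the second became 77 with 0.01 added, 143 at a mean FPKM of at least 1, 27 on the TPM scale without Gm23935, 1 in the Ballgown-style model, 162 with all 9 libraries, 0 with the block and 1 to 8 with a library left out. Past the study's thresholds, 745 and 437 genes became 1423 and 971 with 0.1 added, and 1452 and 974 with 0.01. List genes called in the second comparison numbered 0 by the adjusted p and 6 by the study's thresholds. The cause of these shifts was not tested. Runx2 had no value in the second comparison at a mean FPKM of at least 1, which it did not reach.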
